A study of Mus musculus with 15 samples.

Results

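The neurotrophin and GDNF family was examined in mouse forebrain after hypoxic ischemia, through 2 ligand genes of the neurotrophins (Bdnf and Ntf3), their receptors (Ntrk2, Ntrk3 and Ngfr), the ligand Gdnf and its co-receptors Gfra1 and Gfra2. All probe sets annotated to 1 of these 8 symbols alone were taken, which gave 30 of the 45037 non-control probe sets of the array. They covered 7 of the 8 genes, out of 18193 genes with such a probe set. Ntrk2 and Ntrk3 had 8 probe sets each, Gfra2 had 5, Ngfr and Gfra1 had 3 each, Bdnf had 2 and Gdnf had 1. No probe set was annotated to Ntf3, the gene of neurotrophin-3, and it was not analysed here.

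Total RNA of forebrain had been hybridised to 15 Affymetrix Mouse Genome 430 2.0 arrays, which read each transcript with sets of short oligonucleotide probes. EPO-HI (arrays 11 to 15) received erythropoietin into the peritoneum at 5 U per g, 1 h before hypoxic ischemia. VEH-HI (arrays 6 to 10) received vehicle 1 h before hypoxic ischemia, and VEH-Sham (arrays 1 to 5) received vehicle 1 h before sham surgery. Erythropoietin with sham surgery was not analysed here, so each comparison of EPO-HI with another group is within injury or across both treatments. The sources used here give no strain, age, sex or time of sampling, and no label states whether each sample came from its own animal. A p-value thus reflects the spread among the samples of a group, which could be technical.

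Neurotrophins are secreted as precursors, are cleaved to mature forms, and act through receptor tyrosine kinases: BDNF through TrkB (Ntrk2) and neurotrophin-3 through TrkC (Ntrk3). The receptor p75NTR (Ngfr) binds all neurotrophins and their precursors. TrkB is made both as a kinase-containing receptor, typical of neurons, and as truncated receptors without the kinase, which are abundant in astrocytes. GDNF and its relative neurturin bind the membrane-anchored co-receptors GFRα1 (Gfra1) and GFRα2 (Gfra2), which present them to the kinase RET. In the forebrain the family is known for supporting neuronal survival and synaptic plasticity, and Bdnf is transcribed in response to neuronal activity.

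The arrays fell into 2 sets. The median log2(intensity + 16) was 5.79 to 5.87 on the EPO-HI arrays, 5.83 to 5.92 on the VEH-HI arrays, 5.80 on VEH-Sham 5 and 6.16 to 6.21 on VEH-Sham 1 to 4. VEH-Sham 5 correlated with the VEH-HI arrays at r of 0.962 to 0.975 across probe sets, and with the other 4 VEH-Sham arrays at 0.946 to 0.954. Any difference between an injured group and VEH-Sham therefore rests mainly on 4 arrays that also differ from the rest in their median, and beyond VEH-Sham 5 the injury and the array set cannot be told apart. Differences from VEH-Sham 5 alone are given beside the tested members and the pathway genes described. Of the forebrain markers, 6 of 8 for cortical and hippocampal projection neurons and 6 of 8 for striatal ones were bright enough to test.

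Signal set which members could be judged. The tests ran on the brightest 60% of probe sets by mean over the 15 arrays, a filter at 5.46 on the log2(intensity + 16) scale, and 22 of the 30 members passed it. The 8 below it were the only Gdnf probe set, 1419080_at, 2 of 3 for Ngfr (1450177_at and 1421241_at), 3 of 8 for Ntrk3 (1443970_at, 1425070_at and 1426003_at), 1444121_at of Ntrk2 and 1421973_at of Gfra1. A stricter limit came from 24 genes of liver, pancreas, muscle, testis, eye, skin and other tissues, whose probe sets had a median of 5.24 and a 90th percentile of 7.20. In another 13 probe sets all 3 group means lay under 7.20, so that 21 of the 30 were too dim to judge by the full rule. The 9 that remained belonged to 5 genes: 1422168_a_at of Bdnf, 1420838_at, 1458622_at, 1435305_at, 1437560_at and 1435196_at of Ntrk2, 1433825_at of Ntrk3, 1439015_at of Gfra1 and 1433716_x_at of Gfra2. The Bdnf probe set was at the limit and was kept only through its VEH-HI mean of 7.21. Its means were 7.13 in EPO-HI and 7.1 in VEH-Sham. Without the 3 brightest genes of the panel (Lor, Krt10 and Acta1) its 90th percentile was 5.92, and 10 members were then too dim, a limit chosen after the data had been seen. No probe set of Gdnf passed either limit, and Ngfr passed the lower one with 1454903_at alone.

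**Figure D1:**
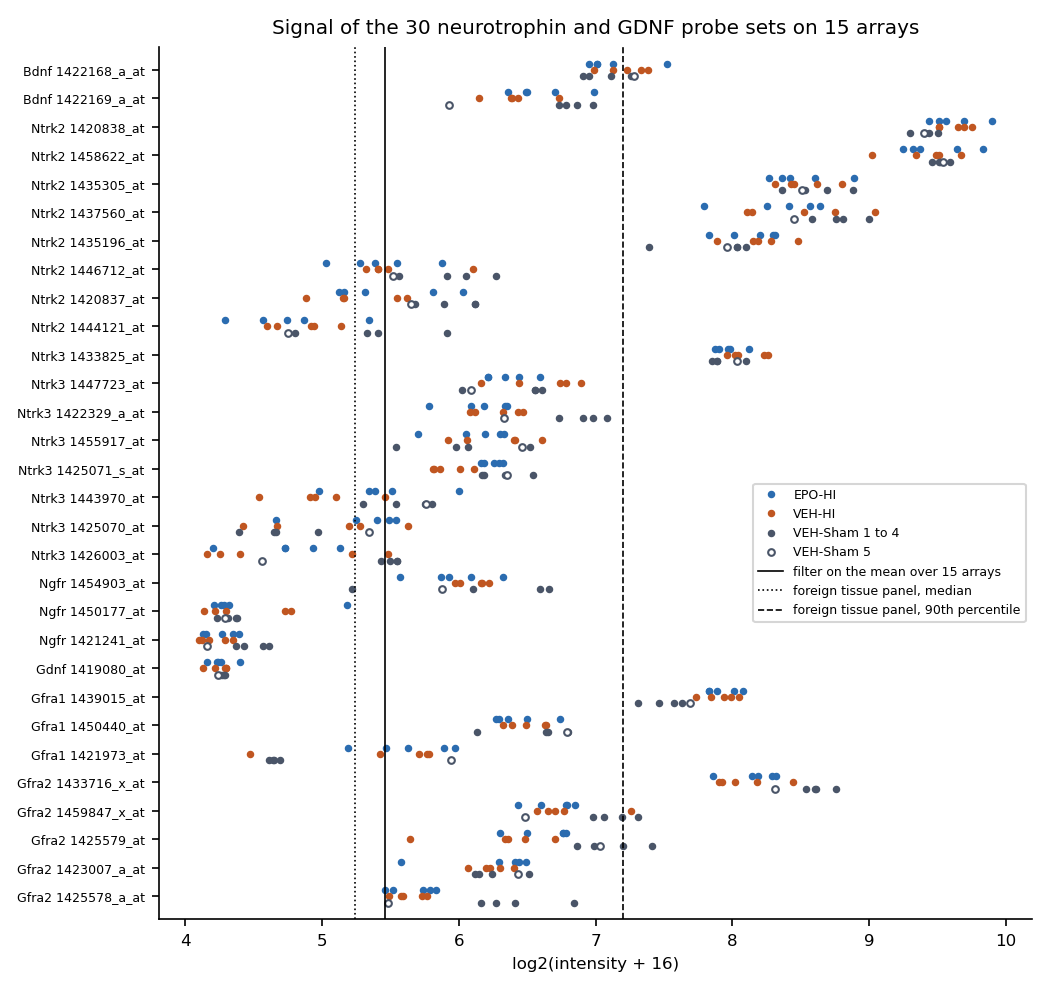
Log2(intensity + 16) of all 30 member probe sets, 1 point per array, with EPO-HI above VEH-HI above VEH-Sham in each row and VEH-Sham 5 as an open circle. The solid line is the filter at 5.46, and the dotted and dashed lines are the median (5.24) and 90th percentile (7.20) of the foreign tissue panel. The 9 rows with a group mean to the right of the dashed line are those that could be judged.

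In VEH-HI against VEH-Sham, 7 of the 22 tested member probe sets passed limma's adjusted p of 0.05, 1 higher and 6 lower. That is 31.8% of them, beside 22.8% of all 27022 tested probe sets, of which 9.85% were higher and 13.0% lower. The split depends on the scale: with equal array medians, which moved the median of all differences to 0.18, member calls were 5 higher and 1 lower, and 6614 probe sets were called higher and 1113 lower over the table. The median difference was -0.11 over the members and -0.06 over all tested probe sets. Of the 7, Gfra1 1439015_at and Gfra2 1433716_x_at were bright enough to judge, and the other 5 were too dim by the full rule. Fitted with a block for the array set, which leaves VEH-Sham 5 as the control array, 0 of the 22 members passed limma's threshold, 1 had an unadjusted p under 0.05, and 0.0111% of all tested probe sets passed. Against VEH-Sham 5 alone, 0 members and 0.0259% of all tested probe sets passed by limma.

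Bdnf, the ligand of TrkB, did not pass the test at either probe set. Its brighter probe set 1422168_a_at read 7.13, 6.95, 7.01, 7.01 and 7.52 on EPO-HI 11 to 15, 7.23, 7.13, 7.33, 7.38 and 6.99 on VEH-HI 6 to 10, and 6.95, 7.26, 6.91, 7.11 and 7.28 on VEH-Sham 1 to 5. The 3 groups overlapped, and EPO-HI 15 was the highest array. The difference VEH-HI minus VEH-Sham was 0.11 (SE 0.13, 95% confidence interval -0.16 to 0.38, limma adjusted p = 0.563), and the difference from VEH-Sham 5 was -0.07. EPO-HI minus VEH-HI was -0.09 (interval -0.35 to 0.18).

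The dimmer Bdnf probe set 1422169_a_at showed how much VEH-Sham 5 can decide. It read 6.49, 6.50, 6.70, 6.36 and 6.99 in EPO-HI, 6.15, 6.39, 6.43, 6.73 and 6.38 in VEH-HI, and 6.73, 6.98, 6.78 and 6.86 on VEH-Sham 1 to 4, against 5.93 on VEH-Sham 5. VEH-Sham 5 was the lowest of all 15 arrays, while VEH-Sham 1 to 4 were among the highest. VEH-HI minus VEH-Sham was -0.24 (SE 0.18, limma adjusted p = 0.339) with all arrays, -0.42 from VEH-Sham 1 to 4 and 0.49 from VEH-Sham 5. The sign of the difference thus turned with the control array used. Without VEH-Sham 5 the probe set passed limma's test as lower in VEH-HI (adjusted p = 0.0291).

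Bdnf is transcribed from several alternative start sites on chromosome 2, and RefSeq (GRCm38.p6) gave 7 promoter windows for it, each of 300 bases, 250 before the start and 50 after it. They are shown for a pair of motifs, the binding letters of CREB and of STAT factors. Through these factors neuronal activity and erythropoietin signalling, respectively, are known to act on promoters. The full CREB motif TGACGTCA was in none of the 14 windows of the 6 member genes that had one, and in 1.8% of all 32851 windows. The core TGACG of that motif was in 2 of the 14 and in 20.8% of all windows, and TTCNNNGAA, the STAT motif, was in 1 of the 14 and in 8.3% of all, counting both strands, with TGACG also lying inside the full CREB motif. TGACG began at position -35 of the Bdnf window on the plus strand that is printed first, where it reads CGTCA because it lies on the other strand, and the STAT match began at position -122 of the second. Positions count from 0 at the annotated start, and capitals mark the matches.
Bdnf chr2:109692186-109692485, plus strand: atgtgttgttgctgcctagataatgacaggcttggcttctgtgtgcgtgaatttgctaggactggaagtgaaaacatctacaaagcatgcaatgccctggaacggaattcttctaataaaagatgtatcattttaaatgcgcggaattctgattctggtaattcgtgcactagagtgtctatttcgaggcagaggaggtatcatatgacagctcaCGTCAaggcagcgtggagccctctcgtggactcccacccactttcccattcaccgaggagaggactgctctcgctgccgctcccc
Bdnf chr2:109674450-109674749, plus strand: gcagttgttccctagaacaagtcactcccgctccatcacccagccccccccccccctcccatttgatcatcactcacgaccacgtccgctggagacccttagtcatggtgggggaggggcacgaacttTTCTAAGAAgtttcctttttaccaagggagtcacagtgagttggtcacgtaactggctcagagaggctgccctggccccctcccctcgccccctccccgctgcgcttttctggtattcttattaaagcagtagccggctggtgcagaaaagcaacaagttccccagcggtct
A match gives the letters only, and neither probe set's record says which start site it reads.

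Gdnf, the founding ligand of its family, gave no signal to compare. Its probe set 1419080_at read 4.16 to 4.40 in EPO-HI, 4.13 to 4.30 in VEH-HI and 4.24 to 4.29 in VEH-Sham, where an intensity of 0 would give 4. It lay at the 2.5th percentile of all probe sets by mean, and no difference was tested.

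Ntrk2, the gene of TrkB, held most of the probe sets that could be judged. The probe set with the highest mean, 1420838_at, read 9.90, 9.44, 9.51, 9.56 and 9.69 in EPO-HI, 9.75, 9.69, 9.65, 9.51 and 9.51 in VEH-HI, and 9.41, 9.30, 9.50, 9.44 and 9.40 in VEH-Sham. Every VEH-HI array lay above every VEH-Sham array, the nearest pair being 9.51 and 9.50, whereas EPO-HI 12 fell inside the VEH-Sham range. With 0.21 (SE 0.09, limma adjusted p = 0.0966), VEH-HI minus VEH-Sham did not pass the threshold. The difference was 0.22 from VEH-Sham 5 and 0.21 from VEH-Sham 1 to 4.

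The other 4 bright Ntrk2 probe sets did not pass limma's test either, and their differences had both signs. The differences VEH-HI minus VEH-Sham were 0.30 at 1435196_at (SE 0.14, limma adjusted p = 0.121), -0.12 at 1458622_at (SE 0.12, adjusted p = 0.486), -0.07 at 1435305_at (SE 0.13, adjusted p = 0.728) and -0.21 at 1437560_at (SE 0.17, adjusted p = 0.395). From VEH-Sham 5 the same differences were 0.24, -0.14, 0.01 and 0.06. At 1458622_at the injured arrays were far more spread than the sham arrays: 9.25 to 9.83 in EPO-HI and 9.02 to 9.67 in VEH-HI, against 9.46 to 9.59 in VEH-Sham. At 1437560_at the range was 7.79 to 8.64 in EPO-HI, 8.11 to 9.04 in VEH-HI and 8.45 to 9.00 in VEH-Sham. The sources used here do not say which TrkB transcript, with or without the kinase, each probe set reads.

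The 3 dim Ntrk2 probe sets were lower in VEH-HI by mean, and 1 passed the test. At 1420837_at the values were 5.31, 5.16, 5.12, 5.81 and 6.03 in EPO-HI, 5.16, 5.62, 5.55, 5.15 and 4.88 in VEH-HI, and 6.12, 5.68, 5.89, 6.12 and 5.65 in VEH-Sham. Every VEH-HI array was below every VEH-Sham array. The difference was -0.62 (SE 0.21, limma adjusted p = 0.042), or -0.38 from VEH-Sham 5, and leaving out any 1 of VEH-Sham 1 to 4 or VEH-HI 6, 9 or 10 ended the call (adjusted p = 0.0511 to 0.101). Quantile normalization (-0.37, limma adjusted p = 0.193) and equal array medians (-0.38, adjusted p = 0.163) ended it too, as did no filter and a fit of 2 groups. Its signal was near the filter, and the bright probe set 1420838_at of the same gene went the other way by mean. At 1446712_at the difference was -0.32 (limma adjusted p = 0.276), or 0.02 from VEH-Sham 5. The untested 1444121_at had -0.38, or 0.11 from VEH-Sham 5.

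**Figure D2:**
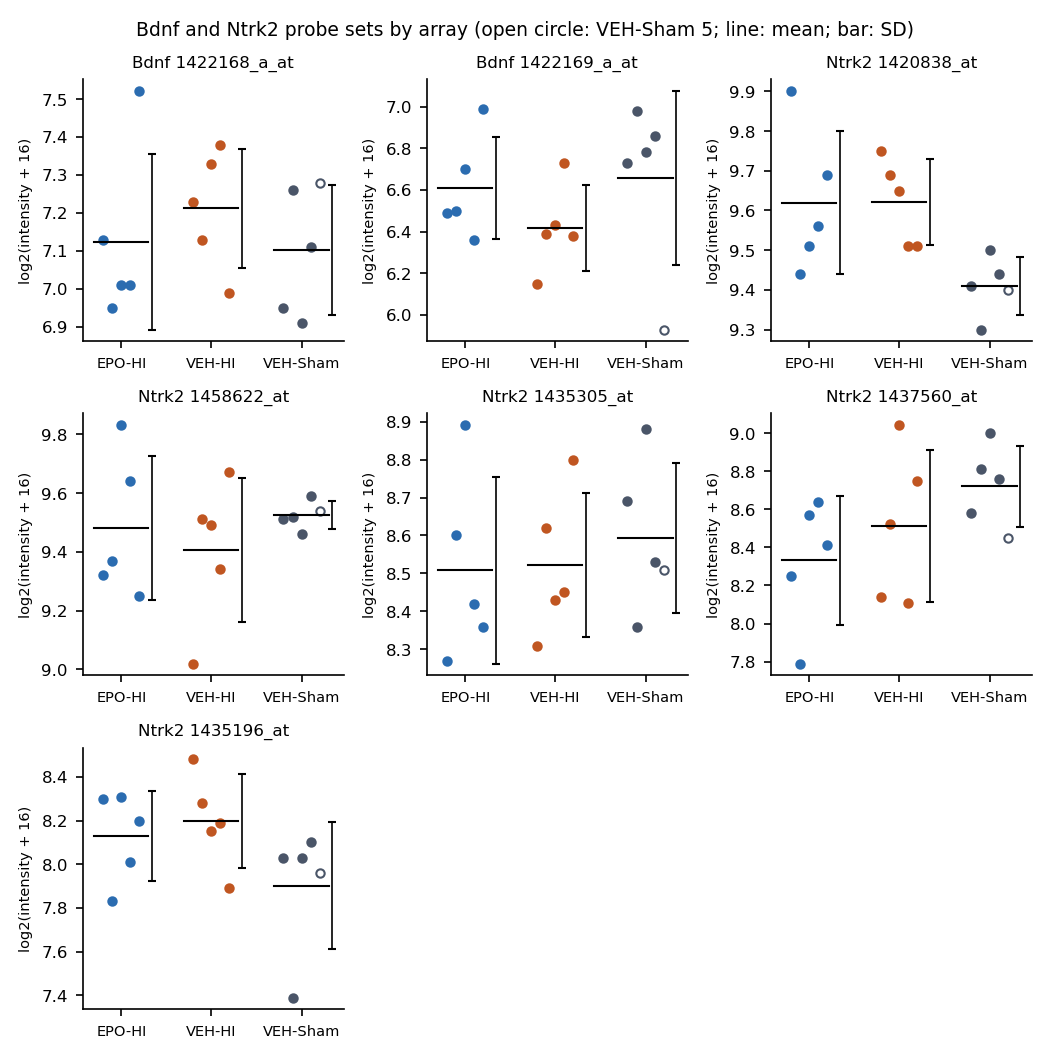
Log2(intensity + 16) of the Bdnf probe sets and the 5 bright Ntrk2 probe sets on each array, grouped as EPO-HI, VEH-HI and VEH-Sham, with VEH-Sham 5 open, the mean as a line and the SD as a bar. At Ntrk2 1420838_at all VEH-HI points lie above all VEH-Sham points (9.51 to 9.75 against 9.30 to 9.50), and at Bdnf 1422169_a_at VEH-Sham 5 lies apart at 5.93.

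Ntrk3, the gene of TrkC, had 1 probe set that could be judged and it did not pass the test. At 1433825_at the values were 7.87 to 8.12 in EPO-HI, 7.96 to 8.26 in VEH-HI and 7.85 to 8.10 in VEH-Sham, and the groups overlapped. VEH-HI differed from VEH-Sham by 0.15 (SE 0.10, limma adjusted p = 0.256), and 0.07 from VEH-Sham 5.

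Among the 4 dimmer tested Ntrk3 probe sets, 2 passed as lower. At 1422329_a_at the values were 6.35, 6.18, 6.34, 5.78 and 6.09 in EPO-HI, 6.43, 6.32, 6.12, 6.08 and 6.47 in VEH-HI, and 6.73, 6.98, 7.08, 6.91 and 6.33 in VEH-Sham. VEH-Sham 5, the last of these, lay among the injured arrays. The VEH-HI minus VEH-Sham difference was -0.52 (SE 0.16, limma adjusted p = 0.0242) with all arrays and -0.05 from VEH-Sham 5, and leaving out VEH-Sham 2, 3 or 4 or VEH-HI 8 or 9 ended the call (adjusted p = 0.0508 to 0.0703). So did quantile normalization (-0.39, limma adjusted p = 0.0559) and equal array medians (-0.28, adjusted p = 0.143).

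At 1425071_s_at the values were 6.26, 6.18, 6.32, 6.29 and 6.16 in EPO-HI, 6.11, 5.81, 6.01, 5.86 and 5.82 in VEH-HI, and 6.34, 6.17, 6.54, 6.18 and 6.35 in VEH-Sham. The VEH-HI arrays were the 5 lowest of the 15, below both other groups. Their difference from VEH-Sham was -0.39 (SE 0.13, limma adjusted p = 0.037) and -0.43 from VEH-Sham 5, and the call was lost without VEH-Sham 1 or 3 or without VEH-HI 7, 9 or 10 (adjusted p = 0.0641 to 0.0975). It was also lost with quantile normalization (-0.16, limma adjusted p = 0.417), equal array medians (-0.15, adjusted p = 0.429), no filter (adjusted p = 0.0609) and a fit of 2 groups (adjusted p = 0.0823). The other tested pair, 1447723_at and 1455917_at, had differences of 0.23 and 0.17 and did not pass (limma adjusted p = 0.31 and 0.551). From VEH-Sham 5 the differences were 0.51 and -0.17, so that the second turned sign.

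Ngfr, the gene of the p75 neurotrophin receptor, was too dim to judge by the full rule at all 3 of its probe sets. By mean, 1454903_at lay at the 53.6th percentile of all probe sets, and 1450177_at and 1421241_at at the 6.7th and 3.6th. At 1454903_at, its only tested probe set, the values were 5.57 to 6.32 in EPO-HI, 5.97 to 6.22 in VEH-HI and 5.22 to 6.66 in VEH-Sham. The sham arrays spread more widely than either injured group, and the difference in mean was 0.02 (SE 0.22, limma adjusted p = 0.967), or 0.22 from VEH-Sham 5. In adult forebrain Ngfr is known from cholinergic neurons of the basal forebrain. Of the 6 marker genes listed for those neurons, Lhx8 and Isl1 passed the filter and neither passed the test, and Chat, Slc5a7, Slc18a3 and Gbx1 were below the filter.

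Gfra1, the co-receptor of GDNF, was the only member with a probe set that passed as higher than sham on the deposited scale. At 1439015_at the values were 7.89, 7.83, 7.83, 8.08 and 8.01 in EPO-HI, 7.84, 7.94, 7.99, 7.73 and 8.05 in VEH-HI, and 7.46, 7.57, 7.31, 7.63 and 7.69 in VEH-Sham. All 10 injured arrays lay above all 5 sham arrays, VEH-Sham 5 being the highest of the sham group. In VEH-HI the rise over VEH-Sham was 0.38 (SE 0.10, 1.30-fold, limma adjusted p = 0.0134), and the call held when any 1 of the 15 arrays was left out. From VEH-Sham 5 alone the difference was 0.22, which did not pass (limma adjusted p = 0.88).

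The other tested Gfra1 probe set, 1450440_at, did not pass, with a difference of -0.11 (SE 0.15, limma adjusted p = 0.606), or -0.30 from VEH-Sham 5. The untested 1421973_at read 5.19 to 5.97 in EPO-HI, 4.47 to 5.78 in VEH-HI, 4.61 to 4.69 on VEH-Sham 1 to 4 and 5.94 on VEH-Sham 5. VEH-Sham 5 lay among the higher injured arrays, and VEH-HI 8, at 4.47, below all the others. The untested difference from VEH-Sham was 0.72 in EPO-HI and 0.52 in VEH-HI, and from VEH-Sham 5 it was -0.31 in EPO-HI and -0.51 in VEH-HI.

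Gfra2, the co-receptor of neurturin, was lower in VEH-HI than in VEH-Sham by mean at all 5 of its probe sets, and 3 passed the test. From VEH-Sham 5 alone 3 of the 5 differences were below 0. The brightest, 1433716_x_at, read 7.86, 8.14, 8.29, 8.32 and 8.19 in EPO-HI, 8.18, 8.44, 8.02, 7.92 and 7.90 in VEH-HI, and 8.61, 8.60, 8.76, 8.54 and 8.31 in VEH-Sham. VEH-Sham 1 to 4 lay above every injured array, and VEH-Sham 5 lay among the highest of them. VEH-HI minus VEH-Sham was -0.47 (SE 0.12, 1.39-fold lower, limma adjusted p = 0.00928), and -0.21 from VEH-Sham 5. The call held when any 1 array was left out, but with equal array medians it was lost (adjusted p = 0.165). The x in its name marks a probe set whose probes can match other transcripts.

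The member with the smallest p was Gfra2 1425579_at. It read 6.76, 6.76, 6.30, 6.78 and 6.50 in EPO-HI, 6.48, 6.34, 6.70, 6.36 and 5.64 in VEH-HI, and 7.20, 6.86, 6.99, 7.41 and 7.03 in VEH-Sham. All 10 injured arrays were below all 5 sham arrays, and VEH-Sham 5 lay in the middle of the sham group. VEH-HI minus VEH-Sham was -0.79 (SE 0.17, 1.73-fold lower, limma adjusted p = 0.00384), and the difference from VEH-Sham 5 was nearly as large, at -0.73. With the array set as a block the unadjusted p was 0.0232 and limma's adjusted p 0.639.

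The last of the 3, 1425578_a_at, reversed with the control array. It read 5.46 to 5.83 in EPO-HI, 5.49 to 5.77 in VEH-HI and 6.16 to 6.84 on VEH-Sham 1 to 4, against 5.48 on VEH-Sham 5. VEH-HI minus VEH-Sham was -0.60 (SE 0.20, limma adjusted p = 0.0337) with all arrays and 0.15 from VEH-Sham 5. Leaving out any 1 of VEH-Sham 1 to 4 or VEH-HI 6, 8 or 9 ended the call (adjusted p = 0.054 to 0.11), as did quantile normalization (-0.39, limma adjusted p = 0.119), equal array medians (-0.36, adjusted p = 0.12), no filter and a fit of 2 groups. The remaining pair, 1459847_x_at and 1423007_a_at, had differences of -0.21 and -0.05 (limma adjusted p = 0.342 and 0.842). From VEH-Sham 5 these were 0.31, of the opposite sign, and -0.19.

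**Figure D3:**
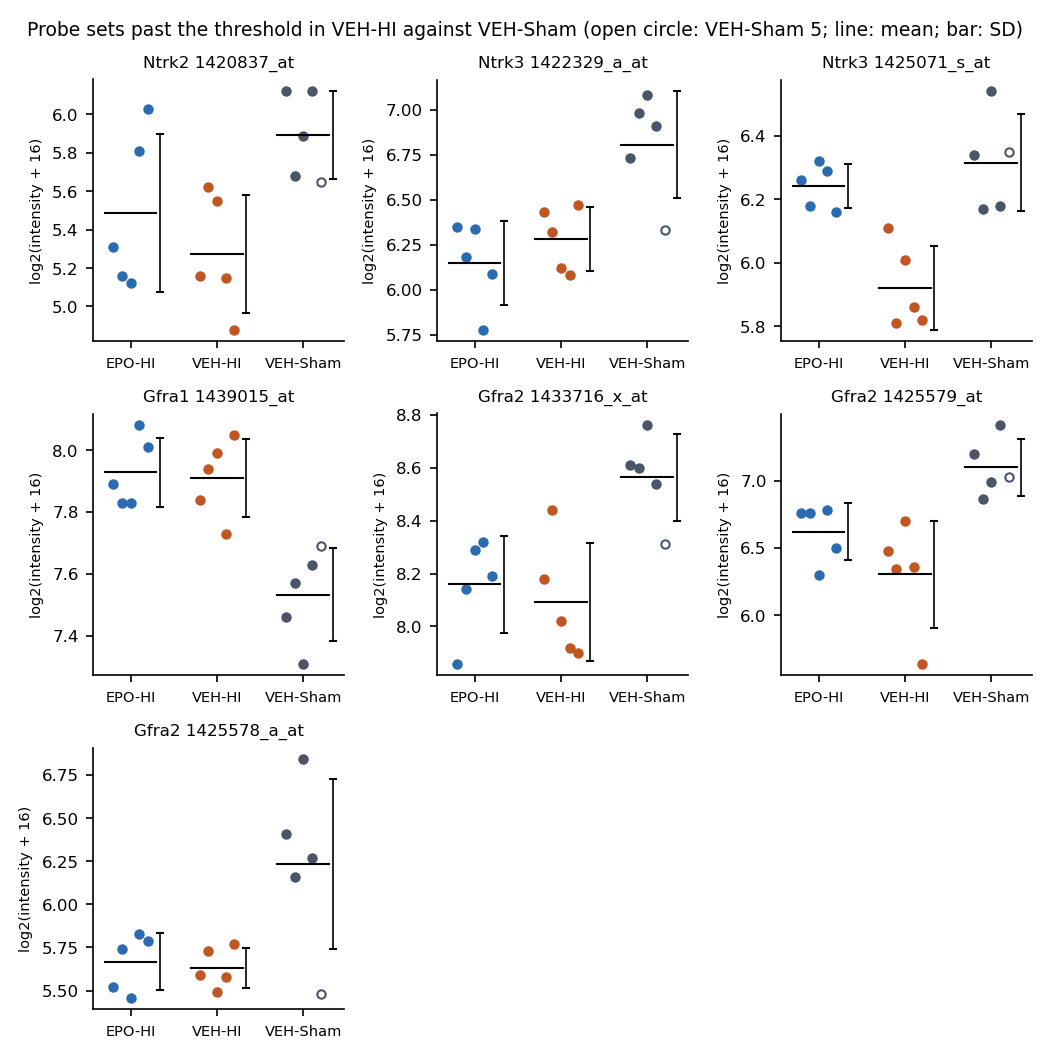
Log2(intensity + 16) of the 7 probe sets that passed limma's adjusted p of 0.05 in VEH-HI against VEH-Sham, grouped as EPO-HI, VEH-HI and VEH-Sham, with VEH-Sham 5 open, the mean as a line and the SD as a bar. Gfra1 1439015_at is higher and Gfra2 1425579_at lower on every injured array than on every sham array, whereas at Ntrk3 1422329_a_at and Gfra2 1425578_a_at VEH-Sham 5 lies at the level of the injured arrays.

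Without overlap between VEH-HI and VEH-Sham were 5 of the 22 members, 22.7%, beside 8.22% of all tested probe sets. They were Ntrk2 1420838_at and 1420837_at, Ntrk3 1425071_s_at, Gfra1 1439015_at and Gfra2 1425579_at. Only Ntrk2 1420838_at and Gfra1 1439015_at were bright enough to judge by the full rule. The nearest VEH-HI and VEH-Sham arrays read 9.51 and 9.50 at Ntrk2 1420838_at, and 5.62 and 5.65 at 1420837_at. In bulk tissue, fewer cells of a type and less RNA per cell cannot be told apart, and this holds for each member called lower. Nor can the array set be told apart from injury for these members, beyond VEH-Sham 5. Their differences from VEH-Sham 5 ran from -0.73 at Gfra2 1425579_at to 0.15 at Gfra2 1425578_a_at. With equal array medians only Gfra2 1425579_at was still called lower by limma.

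Erythropoietin was compared with vehicle within the injured arrays, all of 1 array set. No member passed in EPO-HI against VEH-HI: limma called 0 of the 22, beside 0% of all 27022 tested probe sets, of which 1066 had an unadjusted p under 0.05. The smallest adjusted p was 1 among the members and 0.138 over the table. The largest member difference was 0.32 on the log2(intensity + 16) scale, and the 95% confidence intervals of the 22 differences reached from -0.61 to 0.67. The median difference was -0.03 over the members and 0 over the table. These intervals leave room for changes of this size in single members, and the missed threshold does not show that the groups are alike.

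Ntrk3 1425071_s_at was the 1 member of the 22 with an unadjusted p under 0.05 by limma, beside 1066 of all 27022 tested probe sets. This probe set was too dim to judge by the full rule. Its EPO-HI values of 6.16 to 6.32 all lay above its VEH-HI values of 5.81 to 6.11, with a difference of 0.32 (SE 0.13, interval 0.05 to 0.60, unadjusted p = 0.0241, limma adjusted p = 1). The other tested Ntrk3 probe sets had the opposite sign: -0.24 at 1447723_at, -0.17 at 1455917_at, -0.14 at 1422329_a_at and -0.14 at 1433825_at. The untested 1443970_at, 1425070_at and 1426003_at had 0.45, 0.23 and 0.04. Groups without overlap made up 0.822% of all tested probe sets in this comparison. Gfra2 1425579_at, the member furthest below sham in VEH-HI, also had a difference of 0.32 (interval -0.04 to 0.67, unadjusted p = 0.0763). Since VEH-HI enters both this comparison and the one with sham, a low VEH-HI mean moves both differences. The brightest probe set of Ntrk2, 1420838_at, had a difference of 0 (interval -0.19 to 0.19), Gfra1 1439015_at of 0.01 (interval -0.20 to 0.23), Gfra2 1433716_x_at of 0.07 (interval -0.18 to 0.32) and Ntrk3 1433825_at of -0.14 (interval -0.33 to 0.06).

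**Figure D4:**
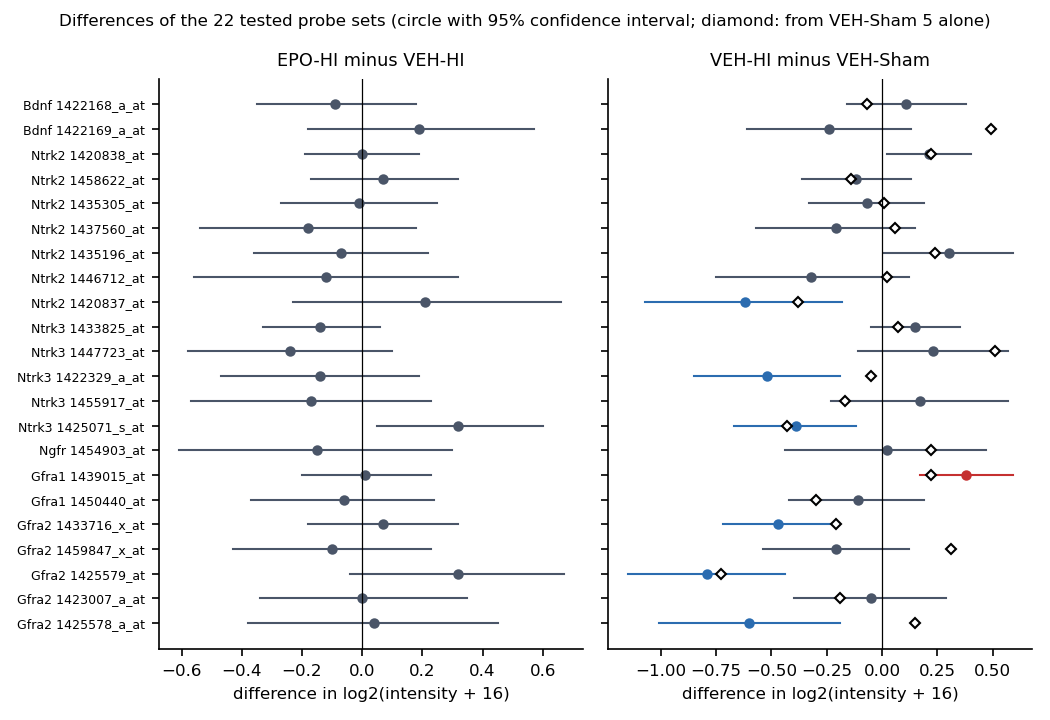
Differences in log2(intensity + 16) of the 22 tested member probe sets, EPO-HI minus VEH-HI on the left and VEH-HI minus VEH-Sham on the right, each with its 95% confidence interval; red and blue mark those that passed limma's threshold as higher and lower, and diamonds give the difference from VEH-Sham 5 alone. No probe set is coloured on the left, and on the right the diamond of Gfra2 1425578_a_at lies at 0.15, across 0 from its circle at -0.60.

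Against VEH-Sham, EPO-HI gave 3 member calls among the 22 tested, 13.6%, beside 18.3% of all tested probe sets, 7.42% higher and 10.9% lower. Without overlap were 2 of the 22, Gfra1 1439015_at and Gfra2 1425579_at, beside 7.29% of all. This comparison shares its sham arrays with the one above. Gfra1 1439015_at was higher by 0.39 (SE 0.10, limma adjusted p = 0.0144), and by 0.24 from VEH-Sham 5. Gfra2 1433716_x_at was lower, with a difference of -0.41 (SE 0.12, adjusted p = 0.025 in limma), or -0.14 from VEH-Sham 5, and leaving out any 1 of VEH-Sham 1 to 4, or EPO-HI 11, ended the call (adjusted p = 0.0513 to 0.0727), as did equal array medians (-0.13, limma adjusted p = 0.43). Ntrk3 1422329_a_at was lower, with a difference of -0.66 (SE 0.16, limma adjusted p = 0.00997), or -0.18 from VEH-Sham 5. The dim Bdnf probe set 1422169_a_at differed by -0.05 from the whole sham group and by 0.68 from VEH-Sham 5. With the array set as a block none of these passed by limma, and 0.0148% of all tested probe sets did. Against VEH-Sham 5 alone 0 members passed, and 0.0185% of all.

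The injured arrays varied in how strongly injury genes were expressed, and 1 Ntrk2 probe set passed the test of a relation to them. An injury index, the mean log2(intensity + 16) of 11 genes known from reactive glia, macrophages and tissue injury (Vim, Timp1, Cd44, Lgals3, Serpina3n, S1pr3, Cd68, Tyrobp, C1qc, Fcgr3 and Hmox1), was 7.67 to 8.60 in EPO-HI, 7.86 to 9.00 in VEH-HI and 6.73 to 7.02 in VEH-Sham. Over the 10 injured arrays, Ntrk2 1458622_at fell as the index rose, with Pearson's r of -0.88 (permutation p = 0.00102, adjusted p = 0.0224 over 22 relations) and Spearman's rho of -0.87 (permutation p = 0.00212, adjusted p = 0.0466). Without the 2 arrays farthest from the median index, VEH-HI 6 and EPO-HI 13, r was -0.71, and after centring on group means it was -0.88. Leaving out VEH-HI 6 or 10 or EPO-HI 13 or 15 ended the call of this relation. Its permutation adjusted p ranged from 0.0101 to 0.13 over the 10 arrays left out in turn. With 5 arrays in a group, no correlation was computed within one.

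The brightest Ntrk2 probe set had the opposite sign. For 1420838_at r was 0.80 (permutation p = 0.00582, adjusted p = 0.064) and rho was 0.83 (permutation p = 0.00502, adjusted p = 0.0552), which did not pass, with r of 0.82 without the 2 farthest arrays. The same array, VEH-HI 6, had the highest index (9.00), the highest VEH-HI value at 1420838_at (9.75) and the lowest of all at 1458622_at (9.02). For 1435196_at r was 0.64 (permutation adjusted p = 0.206) and for 1435305_at it was -0.75 (permutation adjusted p = 0.093). Neither passed, nor did any member outside Ntrk2, the nearest being Gfra1 1450440_at with r of 0.73 (permutation adjusted p = 0.101) and Bdnf 1422168_a_at with 0.59 (permutation adjusted p = 0.263). The remaining bright Ntrk2 probe set, 1437560_at, had r of -0.23, and -0.01 without the 2 farthest arrays. The dim Ntrk2 probe sets 1446712_at and 1420837_at had r of 0.09 and 0.21.

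**Figure D5:**
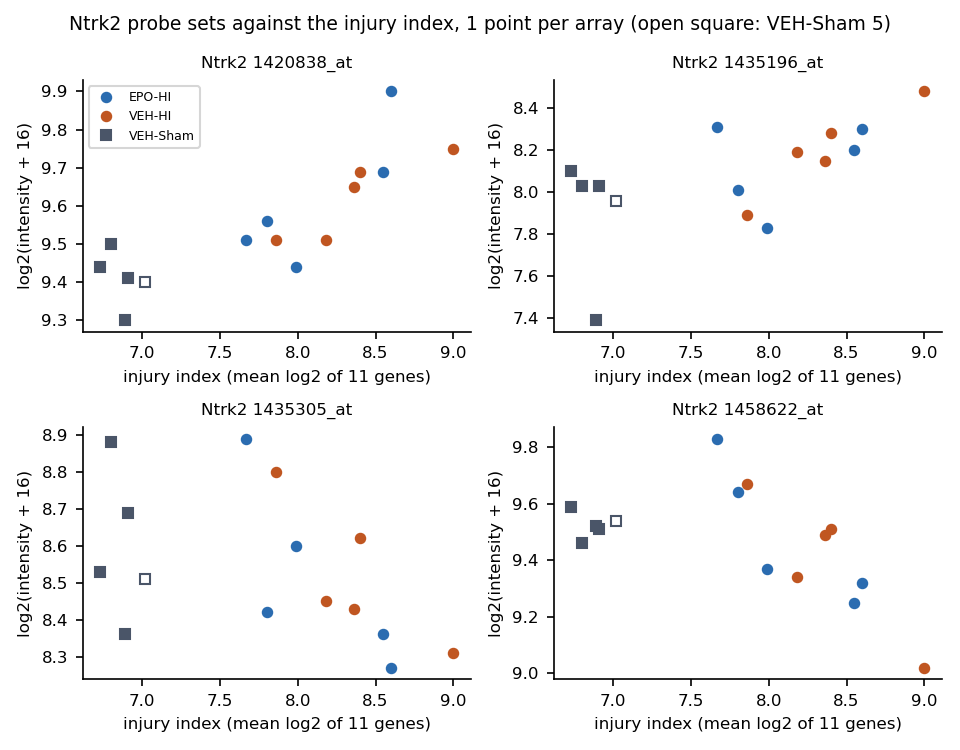
Log2(intensity + 16) of 4 Ntrk2 probe sets against the injury index, 1 point per array, with the sham arrays as squares and VEH-Sham 5 open. Over the 10 injured arrays 1420838_at (r = 0.80) and 1435196_at (r = 0.64) slope upward, and 1458622_at (r = -0.88) and 1435305_at (r = -0.75) slope downward. These 4 were drawn because their r was the largest in absolute value among the tested Ntrk2 probe sets. The bright 1437560_at (r = -0.23) is not drawn.

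Levels of neuronal and astrocyte markers were set beside these values. The mean level of 8 neuronal markers was 11.24 to 11.45 in EPO-HI, 10.92 to 11.47 in VEH-HI, 11.26 to 11.44 on VEH-Sham 1 to 4 and 11.60 on VEH-Sham 5. None of the 8 passed in VEH-HI against VEH-Sham, by limma, and their median difference was -0.14, or -0.31 from VEH-Sham 5. The mean level of 8 astrocyte markers was 9.74 to 10.08 in EPO-HI, 9.61 to 10.18 in VEH-HI, 9.32 to 9.60 on VEH-Sham 1 to 4 and 9.68 on VEH-Sham 5, and 4 of the 8 rose by limma's test, among them Gfap (1.32, adjusted p = 0.00285, or 1.17 from VEH-Sham 5). The median difference of the astrocyte markers was 0.39, or 0.12 from VEH-Sham 5. Over the injured arrays 44 relations to the 2 marker levels were computed, chosen after the index relations had been seen. Ntrk2 1458622_at had r of 0.88 with the neuronal markers (permutation adjusted p = 0.0251), and r of 0.81 without the 2 farthest arrays. Its rho of 0.81 did not pass (permutation adjusted p = 0.193). VEH-HI 6 had both the lowest neuronal marker level (10.92) and the highest injury index (9.00). This relation is thus not independent of the one to the index. The probe sets 1420838_at and 1435196_at had r of 0.78 and 0.84 with the astrocyte markers (permutation adjusted p = 0.107 and 0.0662), which did not pass. Their part in the Ntrk2 values was not tested.

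The rest of the pathway was followed in 4 lists, each gene by its brightest tested probe set. In VEH-HI against VEH-Sham, 23.4% of all 13168 genes passed by limma, 11.9% higher and 11.5% lower. Of 19 other ligands and receptors 14 were tested, 0 were higher and 2 were lower: Lingo1, a partner of the Nogo receptor (-0.32, limma adjusted p = 0.0235), and Pspn, the GDNF relative persephin (-0.57, adjusted p = 0.0291). Their differences from VEH-Sham 5 were -0.29 and -0.11. The list's median difference was -0.05. Next by p were Rtn4r, the Nogo receptor gene (-0.46, limma adjusted p = 0.0861), and Sort1, sortilin, a partner of p75NTR (-0.24, adjusted p = 0.112), which did not pass. From VEH-Sham 5 these were 0.22, of the opposite sign, and -0.12.

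Of 26 adaptors and signalling genes 21 were tested, 2 rose and none fell. Bex3, which binds the intracellular part of p75NTR, rose by 0.50 (limma adjusted p = 0.00642), and Akt1, a survival kinase downstream of Trk receptors and of RET, by 0.43 (adjusted p = 0.0304). From VEH-Sham 5 the differences were -0.05 and -0.15, of the opposite sign. The adaptor genes Shc1 and Gab1 came next, at 0.44 and 0.36, and did not pass (limma adjusted p = 0.0539 and 0.0649), or 0.19 and 0.04 from VEH-Sham 5. Of 16 genes of processing and secretion 12 were tested. Plat, tissue plasminogen activator, which starts the cleavage of precursor BDNF through plasmin, rose by 0.53 (limma adjusted p = 0.00228), or by 0.31 from VEH-Sham 5, and Cadps2, which promotes release of BDNF-containing vesicles, fell by 0.56 (adjusted p = 0.0156), with a difference of -0.56 from VEH-Sham 5 as well. Sorl1 and Chgb did not pass, at 0.25 and -0.19 (limma adjusted p = 0.0967 and 0.14), or 0.43 and -0.43 from VEH-Sham 5. The medians of the 2 lists were 0.04 and -0.04.

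Of 21 listed genes known to respond to neuronal activity or to TrkB, 18 were tested, and 4 were higher and 2 lower. This was the most calls among the 4 lists, where limma called 11.9% of all genes higher and 11.5% lower. The median difference of the list was 0.15. Fos, an immediate early transcription factor gene, was higher by 1.80 (SE 0.43, adjusted p = 0.00677 in limma), or by 1.48 from VEH-Sham 5. Junb, its partner in AP-1, rose by 0.83 (limma adjusted p = 0.0205), and by 0.89 from VEH-Sham 5. Spry2 and Crem rose by 0.26 and 0.41 (limma adjusted p = 0.0454 and 0.0371), or by 0.34 and 0.31 from VEH-Sham 5. Egr3, an activity-dependent transcription factor gene, fell by 0.79 (limma adjusted p = 0.000915), with -0.43 from VEH-Sham 5, and Tac1, the substance P precursor gene, fell by 0.43 (adjusted p = 0.0219), with 0.17 from VEH-Sham 5. The list's genes thus moved in both directions while Bdnf itself did not pass. In EPO-HI against VEH-Sham the 4 lists had 0, 2, 1 and 1 genes higher and 0, 0, 0 and 2 lower in the order above, where limma called 8.86% of all genes higher and 9.46% lower. In EPO-HI against VEH-HI no gene of the 4 lists passed, with 0% of all genes called; the smallest unadjusted p was that of Creb1, a transcription factor that acts on Bdnf, with a difference of 0.22 (unadjusted p = 0.0211, limma adjusted p = 1). The other genes named for this comparison, none past the threshold, were Gfra3 (-0.30), Sorcs3 (-0.16), Kidins220 (0.19), Chgb (0.20), Scg2 (0.23), Egr3 (0.24) and Nrn1 (0.15).

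Genes with the most similar pattern were sought for the brightest probe set of each member that could be judged, over the 10 injured arrays after centring on group means, among the 13168 genes. For Bdnf 1422168_a_at these were Nostrin (r = 0.96), Ap1b1 (0.92) and Mt2 (0.92). For Ntrk2 1420838_at they were Prr5l (0.97), Csf1 (0.95), which encodes a growth factor of microglia and macrophages, and Zc3hav1 (0.93). For Ntrk3 1433825_at they were Rpl7l1, Hadha and Cdk11b, with r of 0.95 each. For Gfra1 1439015_at they were Glce (0.94), Mxi1 (0.94) and Ocrl (0.93), and for Gfra2 1433716_x_at they were Ube2h, Bin1 and Rpap1, with r of 0.95 each. These are the extremes of a search over many genes on few arrays, and are given as a description.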

How the data were processed

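The deposited table gives a linear intensity for each probe set on each array. The software with which the authors summarised the probes was not given in the sources used here, and there are no detection calls. The mean of each column after trimming 2% at each end was 150.0, so the deposited intensities had been scaled to a common target. From these intensities log2(intensity + 16) was taken, without further normalization. Of 45101 probe sets, 64 controls were left out; GEO's platform annotation gave 34945 of the others 1 gene symbol, 932 several and 9160 none, and 34741 were matched to RefSeq by gene number, with 0 symbols changed.

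Tests used limma 3.58.1 in R 4.3.3 (lmFit, eBayes with trend, 3 group means, all 15 arrays) on the 60% brightest probe sets, two-sided, with Benjamini-Hochberg adjustment over all 27022 and a threshold of 0.05. Sorted array medians had their largest gap, of 0.24, between VEH-Sham 1 to 4 and the other 11 arrays, which defined the 2 array sets. Correlations used 100000 permutations, two-sided. The number of arrays, 5 per group, limits the precision. The scripts were tested on simulated data.

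The members, the gene lists and the marker lists were chosen with earlier results of these data known, so that no count over them is independent evidence. Named genes were, from each pathway list, up to 4 with the smallest p in VEH-HI against VEH-Sham and up to 2 in EPO-HI against VEH-HI (Crem and Spry2, which passed, were added after their values were seen), and for each member the brightest probe set. Further marker lists gave, in VEH-HI against VEH-Sham, higher and lower calls of 5 and 0 of 7 tested genes for microglia and macrophages, 0 and 3 of 6 for striatal and 0 and 1 of 6 for cortical projection neurons, 0 and 2 of 6 for interneurons, 0 and 0 of 6 for thalamus, 0 and 1 of 4 for oligodendrocytes, 0 and 0 of 5 for their precursors, 1 and 0 of 6 for endothelium and pericytes, 2 and 0 of 6 for meninges and fibroblasts, 1 and 0 of 3 for choroid plexus, and 1 and 0 of 1 for Schwann cells. Alternatives were the pseudocount, the filter, quantile normalization, equal array medians, eBayes without trend, a fit of 2 groups, the array set and each array left out.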

Additional observations from a re-analysis of the deposited data

Results flagged for a closer look

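In 69 groups of 5 values, 66 of them of member probe sets, the highest or lowest array was tested for standing apart from the other 4 by Dixon's ratio of the gap to the range. In 7 groups 1 did, and chance marks about 1 in 20. Bdnf 1422169_a_at read 5.93 on VEH-Sham 5, against 6.73 to 6.98 on the other VEH-Sham arrays. The median of VEH-Sham 5 itself was 5.80, against 6.16 to 6.21. VEH-Sham 2 was low at Ntrk2 1435196_at, with 7.39 against 7.96 to 8.10 on the rest of its group, and at Gfra1 1450440_at, with 6.13 against 6.64 to 6.80. VEH-HI 8 was high at Ntrk2 1446712_at, with 6.10 against 5.32 to 5.48, and VEH-HI 7 at Gfra2 1459847_x_at, with 7.26 against 6.57 to 6.77. EPO-HI 11 was low at Gfra2 1423007_a_at, with 5.58 against 6.29 to 6.49. None of these probe sets passed a comparison on the deposited scale with all 15 arrays. Ntrk2 1435196_at passed with equal array medians, and without VEH-Sham 5 Bdnf 1422169_a_at passed in VEH-HI and Gfra2 1459847_x_at in EPO-HI, each against sham.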

How the results depend on the processing

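Member calls in VEH-HI against VEH-Sham numbered 7, and 4 with the 40% brightest probe sets, 3 with quantile normalization, 4 with only 2 groups in the fit, 0 with the array set as a block and 0 against VEH-Sham 5 alone. Member calls in EPO-HI against VEH-Sham numbered 3, and 5 with a pseudocount of 32, 0 with the block and 0 against VEH-Sham 5. Over all tested probe sets, VEH-HI against VEH-Sham gave 3 calls with the block and 7 against VEH-Sham 5, and EPO-HI against VEH-Sham gave 4 and 5, and 3008 with the 40% brightest and 8603 with equal array medians. Gfra2 1425578_a_at reversed to 0.15 with the block and against VEH-Sham 5, where 1 array stands for sham.

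Equal array medians moved the median of all differences from sham to 0.22 in EPO-HI and 0.18 in VEH-HI, and split the calls in VEH-HI into 6614 higher and 1113 lower, where the deposited scale gave 2661 and 3513, and in EPO-HI into 7627 and 976, where it gave 2005 and 2934. Member calls in VEH-HI then were 5 higher and 1 lower: Ntrk2 1420838_at (0.46), Ntrk2 1435196_at (0.54), Ntrk3 1433825_at (0.39) and Ntrk3 1447723_at (0.48) passed beside Gfra1 1439015_at and Gfra2 1425579_at.

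Leaving out 1 array at a time gave 0 to 0 member calls in EPO-HI against VEH-HI, 2 to 6 in EPO-HI against VEH-Sham and 3 to 8 in VEH-HI against VEH-Sham; over all probe sets the ranges were 0 to 4 (4 without VEH-HI 8), 2509 to 9047 and 3824 to 9609, the highest 2 without VEH-Sham 5 and the lowest 2 without VEH-Sham 4. Relations to the injury index past the threshold numbered 0 to 2. Too dim to judge were 21 members, 8 by the filter alone and 10 without the 3 brightest panel genes. The cause of these changes was not tested. No paired analysis was possible because the replicate numbers run through the series and no groups share a number.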
